A study of Mus musculus with 6 samples.

Results

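SR proteins and heterogeneous nuclear ribonucleoproteins (hnRNPs) are the families of RNA-binding proteins that steer which exons enter a messenger RNA. They are described here in granulocyte-monocyte progenitors of the marrow, the precursors of neutrophils and monocytes. The members are all genes of the all-gene table whose name begins with Srsf and a digit or with Hnrnp, leaving out names with -ps, and they number 31 of 24205 genes, 11 SR protein genes and 20 hnRNP genes. The progenitors were sorted from bone marrow of C57BL/6 mice after hindlimb ischemia, surgery that cuts off blood flow to a leg, or after a sham operation, with 3 libraries in each group. The age and sex of the mice, the time after surgery, the sorting gate and whether a library pools animals are not stated in the labels. Nothing says that replicates are separate animals, so a p-value reflects only how much these libraries vary, which may be technical.

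An SR protein pairs an RNA recognition motif with a stretch rich in arginine next to serine, the RS domain, whose serines are phosphorylated by SR protein and CDC-like kinases. SR proteins mostly bind exonic enhancers and recruit the spliceosome, while many hnRNPs bind exonic or intronic silencers and favour skipping, so that the balance of both families sets splice site choice. Many genes of both families also restrain their own output by splicing in an exon that sends the transcript to nonsense-mediated decay. In myeloid progenitors the families are known for the recurrent SRSF2 mutations of human myelodysplastic syndromes.

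The families differed in their codons. SR proteins are defined by the RS domain, so the contrast in arginine and serine pairs follows from the family and only describes it. In the longest complete coding sequence of GENCODE M21, SR protein genes held 4.05 to 23.5 adjacent arginine and serine codon pairs per 100 codons (median 16.0), against 0.274 to 2.55 in hnRNP genes (median 0.994). Srsf9 had the fewest of the SR protein genes and Srsf2 the most, and the ranges of the families did not overlap. Glycine codons made up 3.82 to 13.8% of the codons in SR protein genes and 7.03 to 27.5% in hnRNP genes. Hnrnpa0, Hnrnpa3, Hnrnpa1, Hnrnpa2b1 and Hnrnph3 were the glycine-rich end, from 24.3 to 27.5%. The stretches that carry this contrast are shown for a pair of abundant SR protein genes and the most abundant hnRNP gene. Each is the 90-base window within 1 exon with the most marked pairs or codons, 5′ to 3′ on the coding strand, from GENCODE M21 on GRCm38/mm10. In Srsf2 (chr11:116852226-116852315, minus strand, codons 127 to 156) and Srsf7 (chr17:80204142-80204231, minus strand, codons 155 to 184) capitals mark arginine and serine codons that adjoin each other. In Hnrnpa2b1 (chr6:51464447-51464536, minus strand, codons 257 to 286) capitals mark glycine codons.
Srsf2: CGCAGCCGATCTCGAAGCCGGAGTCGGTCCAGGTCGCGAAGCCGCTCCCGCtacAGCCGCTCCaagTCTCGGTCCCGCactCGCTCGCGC
Srsf7: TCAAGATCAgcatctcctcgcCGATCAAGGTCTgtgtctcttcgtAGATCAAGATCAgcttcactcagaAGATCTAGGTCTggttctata
Hnrnpa2b1: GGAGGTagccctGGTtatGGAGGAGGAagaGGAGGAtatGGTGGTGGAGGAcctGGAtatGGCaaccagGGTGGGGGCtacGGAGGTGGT
The Srsf2 window held 23 such arginine and serine pairs and the Srsf7 window 11. Of the 30 codons in the Hnrnpa2b1 window, 20 were glycine codons.

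**Figure D1:**
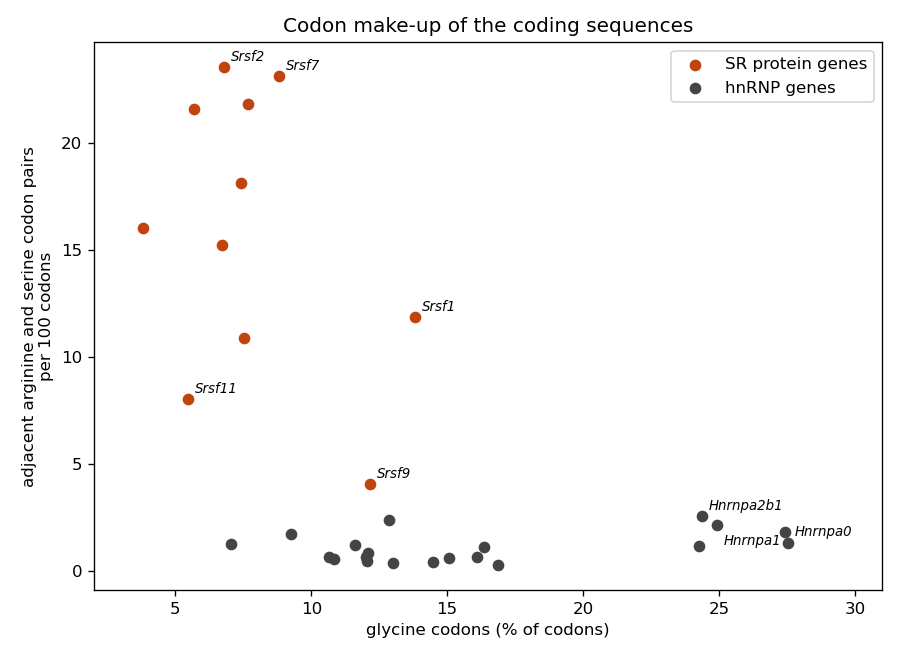
Adjacent arginine and serine codon pairs per 100 codons (vertical axis) against the share of glycine codons in percent (horizontal axis), 1 point for each of the 31 genes, from GENCODE M21 coding sequences. SR protein genes lie at 4.05 or more pairs, hnRNP genes at 2.55 or fewer.

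As markers of the sorted population, the granulocyte-monocyte progenitor genes summed to 24579 to 30233 TPM in hindlimb ischemia libraries and 25377 to 30535 TPM in sham libraries. Of these 11 genes 2 were higher and 9 lower after hindlimb ischemia, where 30.9% of all genes were higher. Their median log2 fold change was -0.20, against -0.09 over all genes, and 0 had an unadjusted p under 0.05 by limma. TPM scales reads by gene length and to the same total in each library. Erythroid genes summed to 25.9 to 85.2 TPM after hindlimb ischemia and 145 to 178 TPM in sham, without overlap, with 7 of 8 genes above the filter on low values, all 7 lower and 6 of them at an unadjusted p under 0.05 by limma, compared with 3.89% of all genes. Their highest levels were those of the globins Hba-a2 and Hba-a1, at means of 30.7 and 26.7 TPM over the 6 libraries. Lymphoid genes summed to 44.0 to 46.0 and 51.1 to 57.8 TPM (3 of 8 above the filter), macrophage genes to 17.9 to 22.6 and 20.0 to 25.4 TPM, and stromal and endothelial genes to 22.5 to 40.8 and 30.04 to 39.3 TPM, each time in hindlimb ischemia libraries and then in sham libraries. All 3 tested lymphoid genes were lower after hindlimb ischemia, and Ly6d (log2 fold change -1.34) and Cd79a (-0.82) had an unadjusted p under 0.05 by limma, without group overlap. All 4 tested macrophage genes were lower, and C1qb (-0.56) had an unadjusted p under 0.05, without group overlap. No marker passed the adjusted threshold. Of the other lymphoid genes, Ebf1, Pax5, Cd3e and Cd3g averaged under 0.1 TPM over the 6 libraries. The part of these other cell types in the results on splicing factors was not tested. In bulk libraries, fewer cells of a type and less RNA per cell cannot be told apart.

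Some splicing factors were among the abundant messages of these progenitors, and 12 of the 31 ranked in the first 1000 of 24205 genes by mean TPM. The 31 genes together took 0.628 to 0.642% of all TPM after hindlimb ischemia and 0.558 to 0.717% in sham. Of them, 17 averaged 100 TPM or more over the 6 libraries, and the lowest of these 17, Hnrnph1, stood 1626th of all genes. Hnrnpa2b1, which binds exonic silencers and stood 142nd of 24205 genes by mean TPM, was the most abundant, with 850.2, 994 and 1009.7 TPM after hindlimb ischemia, against 1035, 841 and 766 TPM in sham replicates 1, 2 and 3. Hnrnpf, a binder of guanine runs, had 703, 587 and 565 TPM after hindlimb ischemia and 785, 593 and 602 TPM in sham. The values of the groups overlapped for both genes, with sham replicate 1 the highest library of each.

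Below them in abundance came Hnrnpk, Srsf7 and Hnrnpu, whose 6-library means of 449.9, 446 and 440.2 TPM lay closer together than the spread of any of these genes. Hnrnpk, which binds cytosine-rich RNA, had 466, 437 and 446 TPM after hindlimb ischemia and 538, 408 and 405 TPM in sham. Srsf7, an SR protein that also serves messenger RNA export, was the most abundant of its family, with 372, 449.7 and 502 TPM after hindlimb ischemia and 498, 441 and 411 TPM in sham. Hnrnpu, a nuclear matrix protein, had 504, 439 and 385 TPM after hindlimb ischemia and 529, 394 and 391 TPM in sham. For Srsf7 hindlimb ischemia replicate 1 was the lowest library of the 6, and for Hnrnpu it was the highest of its group. At the other end, Hnrnpul2 averaged 14.4 TPM and Srsf4 18.7 TPM. Srsf12 was listed at 0.112 TPM in hindlimb ischemia replicate 1, from 6 reads, and at 0 in the other 5 libraries, where a count of 0 allows up to 3 reads, counting error only. It was the single member under the filter of at least 1 TPM in at least 3 libraries, so 30 members were tested.

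**Figure D2:**
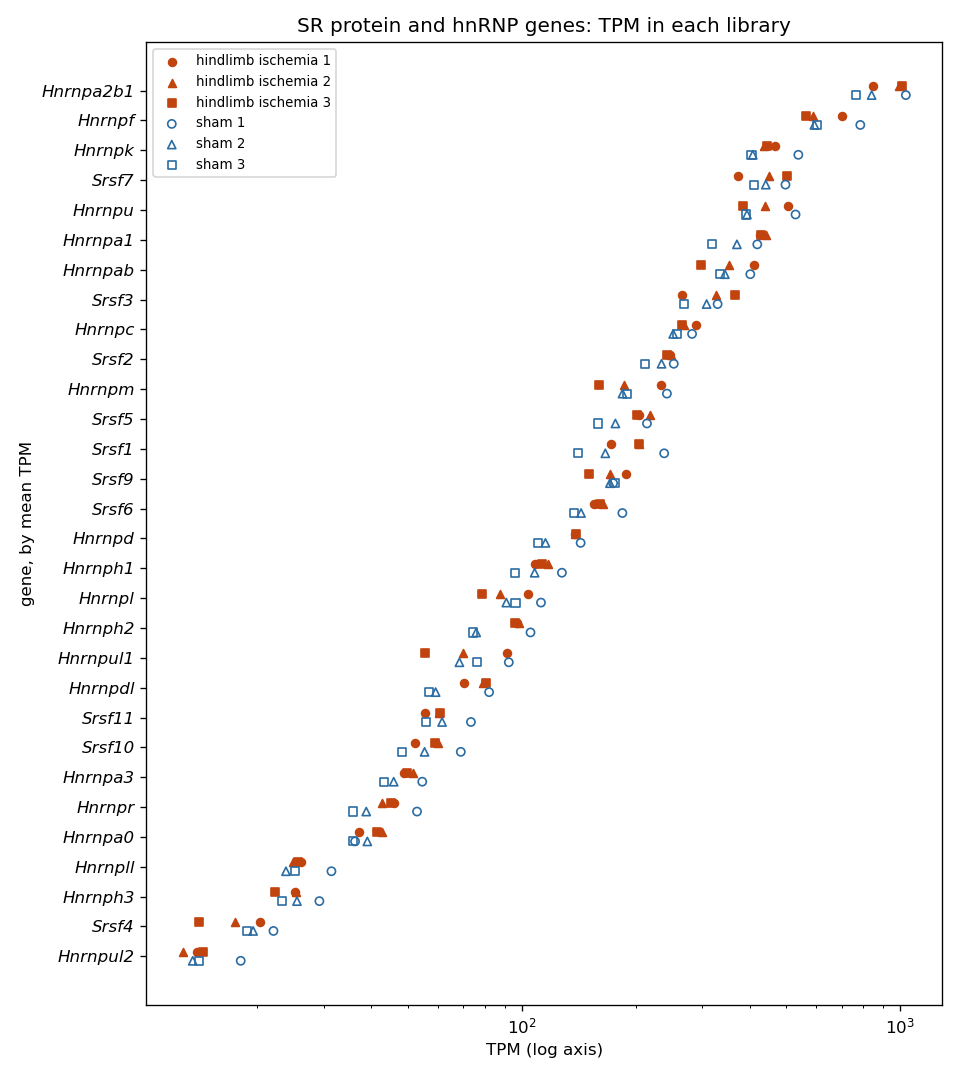
TPM (horizontal log axis) of the 30 tested genes in each library, filled symbols for hindlimb ischemia and open symbols for sham, genes ordered by mean. Hnrnpa2b1 is at the top with 766 to 1035 TPM, and the ranges of the groups overlap for every gene but Hnrnpa1.

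Reads could be recovered from TPM for 15 of the 31 genes, those for which TPM multiplied by the GENCODE M21 exon-union length gave whole reads in all 6 libraries. Apart from Srsf12, they rested on 1229 reads or more in each library, up to 28932 for Srsf1. The exon-union length counts every annotated exon, so a gene with long, rarely used exons gets a lower TPM, and the order of levels between genes depends on it.

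The counts per gene also merge isoforms and may mix in reads of other genes with the same sequence. GENCODE M21 lists a transcript of the nonsense-mediated decay class for 9 of 10 tested SR protein genes and 10 of 20 hnRNP genes, and for 29.96% of the 10524 protein-coding genes tested. The median number of listed transcripts of any class was 7.5, 8 and 5 in these sets, and its part in the shares was not tested. Hnrnpd has 4 transcripts of the decay class, Hnrnpk, Hnrnpu and Srsf11 have 3 each, and the TPM values do not separate them from productive ones. Some members share sequence with other genes, processed copies among them. Of the 50-base stretches of Hnrnpf transcripts, 61.9% also occur in transcripts of other genes. The share was 28.2% for Hnrnpa1 and 27.1% for Hnrnpa3. For Srsf4 the share was 39.5%, all in a single other gene, Gm12992, and for Srsf6, Srsf9, Srsf12 and Hnrnpa0 it was 0. Reads of genes with a high share are uncertain, since no source used here gives the counting rule for reads that match several places. Hnrnpa1l2-ps, the single name that the rule dropped, had 35.9, 37.1 and 35.9 TPM after hindlimb ischemia and 34.8, 31.5 and 26.1 TPM in sham, the same order of libraries within sham as Hnrnpa1.

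The comparison of hindlimb ischemia with sham asked whether these genes change in the marrow when a leg is ischemic. No splicing factor passed the test. With limma-trend on log2(TPM + 1) and Benjamini-Hochberg adjustment over 13787 genes, 0 of 30 members passed an adjusted p of 0.05, as did 0% of all genes, and every member's adjusted p was at least 0.874. At an unadjusted p under 0.05 there were 0 of 30 members, with 3.89% of all genes tested. The 95% intervals of all 30 included 0 and ended between -0.60 and 0.58 on the log2 scale. In this fit, with each gene taken singly, changes beyond 1.51-fold lay outside every interval. That bound does not carry over to the alternative settings, whose intervals are not given here. Of the members, 17 had a higher mean log2 value and 13 a lower one, where 30.9% of all genes were higher. The number higher was 24 without sham replicate 1, where 40.8% of all genes were higher. It was 10 without sham replicate 3, where 27.5% of all genes were higher, so the split rests on those libraries. The median log2 fold change was 0.03 for SR protein genes and 0.03 for hnRNP genes, and -0.09 over all genes tested.

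The 10 SR protein genes were divided 5 and 5 in direction. Srsf5, known in rat liver cells as an insulin-induced gene, had 204, 218 and 201 TPM after hindlimb ischemia and 214, 177 and 159 TPM in sham, a log2 fold change of 0.19 (SE 0.14; adjusted p 0.874). Sham replicate 1 lay among the hindlimb ischemia values and the other sham libraries below them. Srsf4, whose coding sequence has the most arginine and serine pairs of all members (106), had 20.3, 17.5 and 14.0 TPM after hindlimb ischemia and 22.04, 19.5 and 18.7 TPM in sham, the lowest log2 fold change of all members at -0.22 (SE 0.17; adjusted p 0.874). Its groups overlapped through hindlimb ischemia replicate 1. Srsf1, which promotes exon inclusion and is a proto-oncogene, had 172, 204 and 205 TPM after hindlimb ischemia and 238, 166 and 141 TPM in sham. Its sham SD on the log2 scale was the largest of the members.

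Srsf2, which defines exons through guanine- and cytosine-rich enhancers, varied little after hindlimb ischemia, with 247, 248 and 242 TPM after hindlimb ischemia and 252, 234 and 212 TPM in sham. Srsf3, the smallest SR protein, had 265, 325 and 366 TPM after hindlimb ischemia and 329, 308 and 269 TPM in sham. Like Srsf7, it was lowest of all libraries in hindlimb ischemia replicate 1 and highest in hindlimb ischemia replicate 3. Srsf9 had 189, 171 and 151 TPM after hindlimb ischemia and 174, 171 and 176 TPM in sham, the reverse order within hindlimb ischemia. Srsf6, Srsf10 and Srsf11 had log2 fold changes of 0.06, -0.001 and -0.10. Summed, the SR protein genes had 1869.8 ± 122 TPM after hindlimb ischemia and 1819 ± 216 TPM in sham (mean ± SD, n = 3 each), which differed by less than either SD.

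The A/B and D type hnRNPs, glycine-rich proteins that bind silencers and AU-rich elements, had a median log2 fold change of 0.12, with 6 of 7 higher, and none passed the test. Hnrnpa1, the best known antagonist of SR proteins, had 426, 441 and 428 TPM after hindlimb ischemia and 419, 370.3 and 318 TPM in sham. It was the single member whose groups did not overlap (1 of 30, where all hindlimb ischemia values lay above all sham values for 1.65% of all genes and below them for 6.68%). Its log2 fold change was 0.23 (SE 0.13; 95% interval -0.06 to 0.53; adjusted p 0.874), and the gap between the nearest values of the groups was small beside the spread of sham. Hnrnpd, which binds AU-rich elements and directs messages to decay, had 138, 138 and 139 TPM after hindlimb ischemia and 143, 115 and 110.1 TPM in sham, a log2 fold change of 0.18 (SE 0.14). Its paralog Hnrnpdl had 70.3, 78.7 and 80.2 TPM after hindlimb ischemia and 81.9, 59.2 and 56.9 TPM in sham, a log2 fold change of 0.23 (SE 0.16). For both, sham replicate 1 lay above every hindlimb ischemia value and the other sham libraries below every one. The paralogs are neighbours on chromosome 5, at 99955935 to 99978938 and 100033577 to 100039664 on the minus strand of GRCm38, 54.6 kb apart. Hnrnpa2b1, Hnrnpa0 and Hnrnpa3 had log2 fold changes of 0.12, 0.12 and 0.07, and Hnrnpab had -0.04.

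Among the F/H hnRNPs, which bind guanine runs, Hnrnph2 on the X chromosome had 97.3, 98.5 and 96.1 TPM after hindlimb ischemia and 105, 75.7 and 74.3 TPM in sham (log2 fold change 0.21, SE 0.15; adjusted p 0.874). Its hindlimb ischemia values spanned under 3 TPM, while sham replicate 1 stood far above its group. Hnrnph1, Hnrnph3 and Hnrnpf had log2 fold changes of 0.04, -0.09 and -0.09. Hnrnpl, a binder of CA repeats, had 104, 87.4 and 78.6 TPM after hindlimb ischemia and 112, 91.0 and 96.2 TPM in sham, a log2 fold change of -0.15 (SE 0.15). Hnrnpll, its paralog, known for CD45 exon skipping in lymphocytes, had -0.06. The uridine binder Hnrnpc had 0.06, Hnrnpm -0.09, Hnrnpr 0.09 and Hnrnpk 0.01, so this group showed no common direction.

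The Hnrnpu-like genes lay at the lower end. Hnrnpul1 had 91.2, 69.9 and 55.6 TPM after hindlimb ischemia and 92.3, 68.4 and 76.1 TPM in sham (log2 fold change -0.14, SE 0.19). Hnrnpul2 had 13.9, 12.7 and 14.4 TPM after hindlimb ischemia and 18.1, 13.5 and 14.0 TPM in sham (log2 fold change -0.13, SE 0.17). In both the groups overlapped, and Hnrnpu itself had 0.02. Summed, the hnRNP genes had 4499.8 ± 186 TPM after hindlimb ischemia and 4385 ± 637 TPM in sham (mean ± SD, n = 3 each), with the larger spread in sham.

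**Figure D3:**
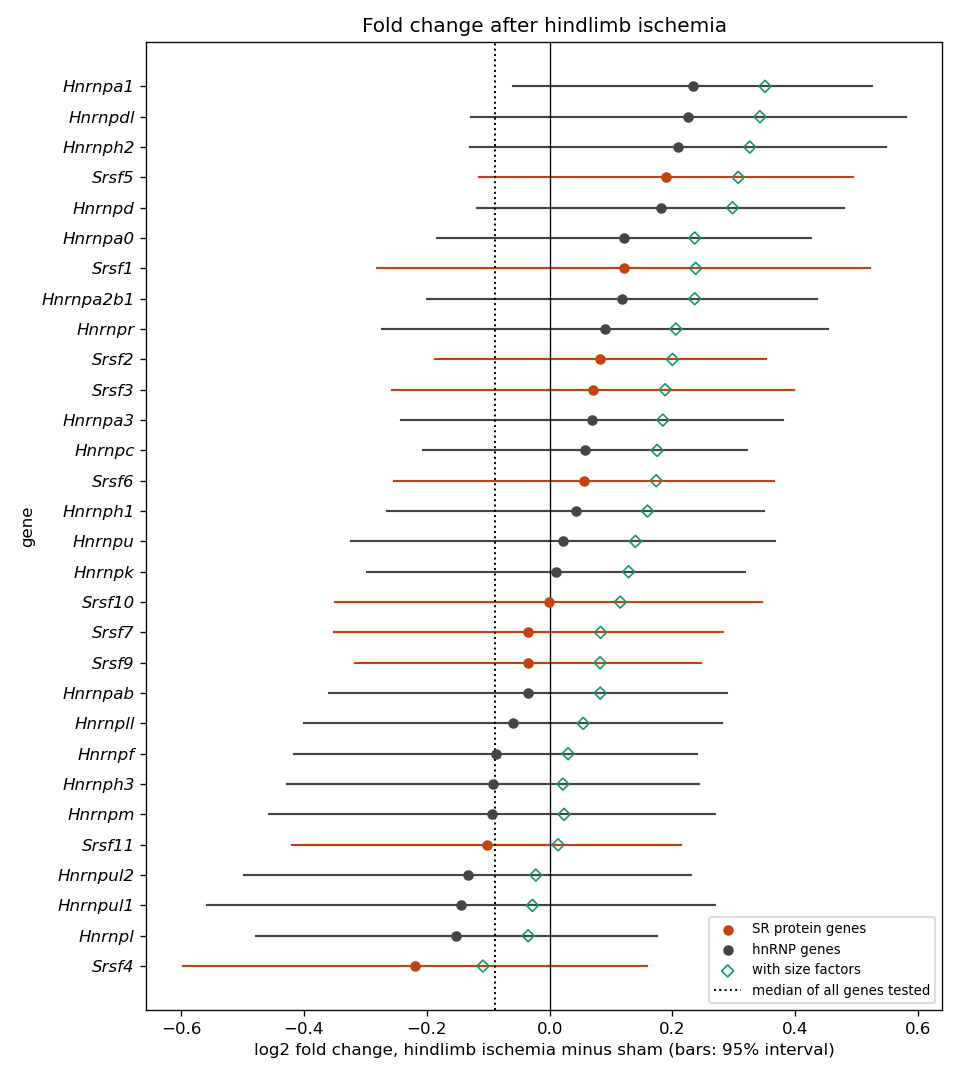
Log2 fold change, hindlimb ischemia minus sham, of the 30 genes on the log2(TPM + 1) scale (circles) with 95% intervals (bars), and after division by size factors (open diamonds). Every interval crosses 0, the dotted line marks the median of all genes at -0.09, and Hnrnpa1 is at the top with 0.23.

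Sham replicate 1 carried most of the spread. It was the highest of the 6 libraries for 22 of 30 members, as it was for 51.4% of all genes, and the highest sham library for 28. Sham replicate 3 was the lowest sham library for 22 members. The share over all genes was not taken for these counts within sham, so they are not read as particular to the members. The median SD of the members on the log2 scale was 0.10 in hindlimb ischemia and 0.21 in sham, against 0.20 and 0.19 for all genes. Every hindlimb ischemia value lay above sham replicates 2 and 3 for 14 of 30 members, compared with 8.15% of all genes. These were 5 of the 7 A/B and D genes, Srsf1, Srsf2, Srsf5 and Srsf6, and Hnrnpk, Hnrnpc, Hnrnpr, Hnrnph1 and Hnrnph2. That count leaves out sham replicate 1, which lay above every hindlimb ischemia value for 22 members and for 55.9% of all genes. With sham replicate 1 kept, only Hnrnpa1 remained, so the count is not read as a rise of the family.

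Scaling by size factors moved all genes together. Size factors, the median ratio of each library to the gene means, ran from 0.884 to 1.06 in hindlimb ischemia and from 0.980 to 1.17 in sham, highest in sham replicate 1, and gave a median over all genes of 0.02, where it was -0.09 without them. After division by them 26 of 30 members were higher after hindlimb ischemia, as were 53.6% of all genes, with a median of 0.14 for SR protein and 0.15 for hnRNP genes. The unadjusted p was then under 0.05 for Hnrnpa1, Hnrnpd, Hnrnpdl, Hnrnph2 and Srsf5, 5 of 30, all higher, compared with 5.08% of all genes in either direction and 2.44% higher, and 0 members passed the adjusted threshold (smallest adjusted p 0.853). Without sham replicate 1 and without size factors, the same 5 genes and Srsf1 had an unadjusted p under 0.05, 6 of 30, compared with 2.90% of all genes in either direction and 1.44% higher. Their log2 fold changes were 0.29 to 0.39, and no member had an adjusted p under 0.9996 by limma. In the authors' deposited table, the log2 fold change was turned to hindlimb ischemia over sham. There 27 of 31 members were positive with a median of 0.12, against 12478 of 24205 genes with a median of 0.003. By the authors' test Hnrnpa1 had the smallest adjusted p of the members at 0.62, and the smallest over all genes was 7.02e-06.

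**Figure D4:**
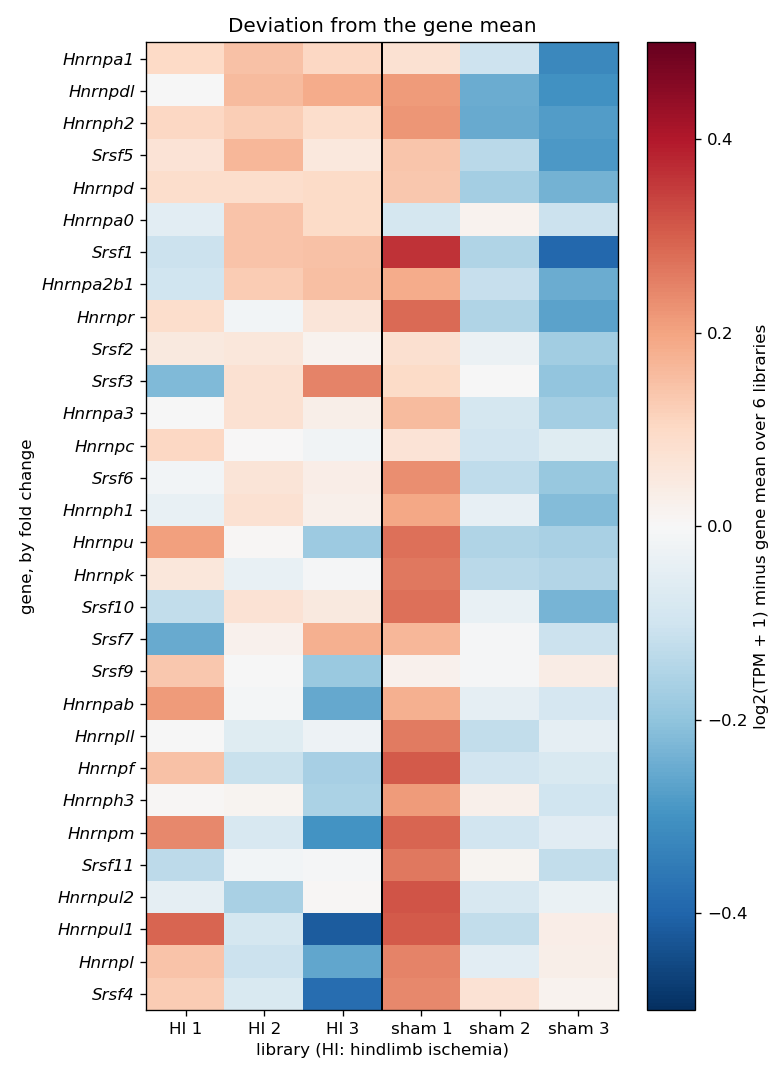
Deviation of log2(TPM + 1) from the gene's mean over 6 libraries (colour scale), with the 3 hindlimb ischemia libraries left of the 3 sham libraries and genes ordered by fold change. Sham 1 is the highest library for 22 of the 30 genes, and the hindlimb ischemia libraries differ among themselves by gene.

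Libraries of both groups also varied among themselves along the base composition of the genes. Across the 30 members, whose longest transcripts had a GC content of 37.1 to 55.4% (median 43.3%, against 49.2% over all genes), the difference of hindlimb ischemia replicate 1 minus replicate 3 had a Pearson correlation with GC content of 0.55 and a Spearman correlation of 0.44. For sham replicate 3 minus sham replicate 1 both correlations were 0.56. GC-rich Hnrnpul1, Hnrnpl and Srsf4 were higher in replicate 1, and GC-poor Srsf3 and Srsf7 higher in replicate 3. Against this pattern, Hnrnpa0, the most GC-rich, was higher in replicate 3, and GC-poor Hnrnpu was higher in replicate 1. The difference of the group means had correlations of -0.49 (Pearson) and -0.44 (Spearman) with GC content in the members, and -0.30 and -0.34 over 13569 genes. These are correlations across genes of the same libraries, not across replicates, and the part of GC content in the results was not tested. With the dependence on GC content and length taken out of every library, an alternative chosen after seeing the data, 25 of 30 members were higher. The share of all genes that were higher was then 51.2%. The unadjusted p was under 0.05 for the same 5 genes as with size factors, compared with 7.05% of all genes in either direction and 3.07% higher, and the smallest adjusted p of a member was 0.54.

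**Figure D5:**
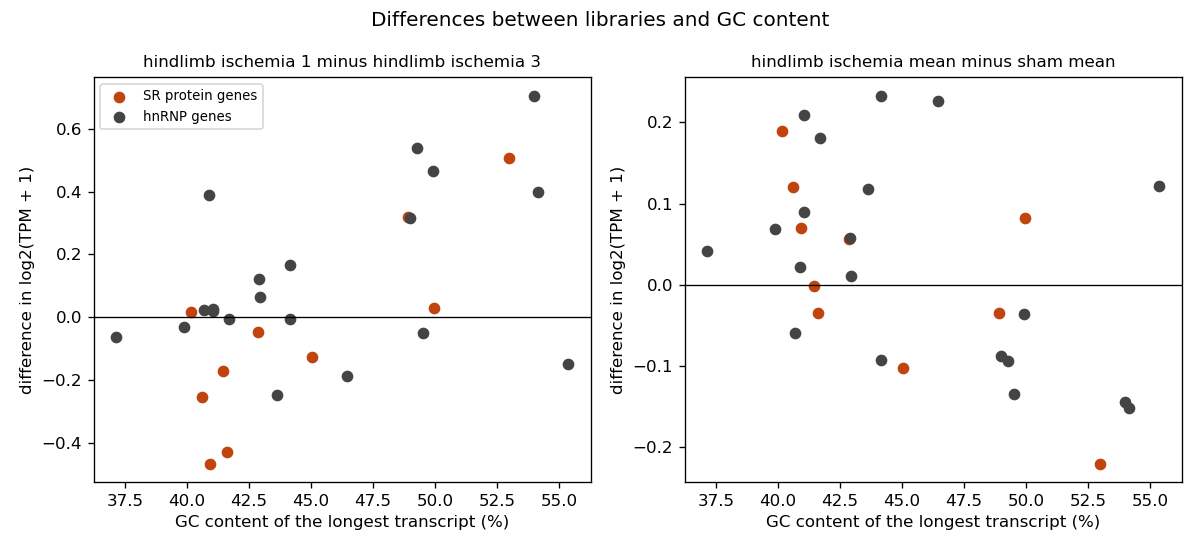
Difference in log2(TPM + 1) against GC content of the longest transcript in percent, for the 30 genes, between hindlimb ischemia replicates 1 and 3 (left) and between the group means, hindlimb ischemia minus sham (right). The left points rise with GC content (Pearson 0.55) and the right points fall (Pearson -0.49).

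The rest of the splicing machinery gave 0 genes past the adjusted threshold, and 1, Luc7l, at an unadjusted p under 0.05, compared with 3.89% of all genes. Over all genes tested 30.9% were higher, with a median of -0.09. Of 11 tested kinases and import factors of SR proteins 5 were higher and 6 lower, with a median log2 fold change of -0.07. The 3 with the smallest p in this list were the kinase Clk2 (-0.18) and the import receptors Tnpo3 (-0.21) and Tnpo2 (-0.20). Of 17 SR-related genes 6 were higher, with a median of -0.02. Luc7l, a U1-associated protein, had 34.6, 30.3 and 27.9 TPM after hindlimb ischemia and 47.4, 38.0 and 35.4 TPM in sham without overlap (log2 fold change -0.36, unadjusted p 0.044 and adjusted p 0.874 by limma). Tra2b, the SR-like activator that binds GA-rich enhancers, had 139, 173 and 187 TPM after hindlimb ischemia and 231, 203 and 181 TPM in sham, which overlapped, and Rsrc1 had 0.19.

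Core spliceosome genes had a median of -0.11, with 9 of 30 higher, close to the values over all genes. The Sm protein genes Snrpe (0.33) and Snrpd1 (0.27) were among the 3 with the smallest p, and the third was Prpf3, of the U4/U6 particle, at -0.32. Snrpe had 223, 370.3 and 423 TPM after hindlimb ischemia and 238, 288 and 254 TPM in sham, with hindlimb ischemia replicate 1 lowest of all. Of 27 other splicing regulators 9 were higher, with a median of -0.05, and Pcbp4 (-0.41), Raly (-0.23) and Pcbp3 (-0.27) had the smallest p. All adjusted p-values in these 4 lists were at least 0.874 by limma. With size factors the counts of higher genes were 6 of 11 kinases and import factors, 12 of 17 SR-related genes, 16 of 30 core spliceosome genes and 18 of 27 other regulators, while the share of all genes that were higher was 53.6% with size factors and 30.9% without.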

How the data were processed

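Bulk RNA sequencing of sorted progenitors gave 3 hindlimb ischemia and 3 sham libraries, grouped by their titles. The authors deposited TPM values per gene and library, per the file headers, with their own log2 fold change and adjusted p-value per gene. The genome build named is mm10, per the submitters' processing notes. Aligner, counting tool, strand handling, annotation and the authors' test are not stated in any source used here. The deposited log2 fold change ran opposite to the ratio of TPM means, hindlimb ischemia over sham (Spearman -0.86), so its sign was turned.

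The filter required 1 TPM or more in 3 libraries or more and left 13787 genes. Their log2(TPM + 1) values entered limma-trend (limma 3.58.1, R 4.3.3) with robust empirical Bayes, no covariate and 4 residual degrees of freedom. Fold changes are on that scale, which understates the change of low genes. Adjustment of p-values was by Benjamini and Hochberg over these genes. Depth is not part of TPM. Whole reads were recovered with GENCODE M21 exon-union lengths within 0.001 reads for 14448 genes (59.7%), which held 16463614 to 21373538 reads per library. No pair of libraries agreed within sampling noise (chi-square per gene 13.2 to 115).

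The members and lists were chosen with earlier results of these data known. Members were named by rule as the 5 most abundant, the 4 with the smallest p in each direction and those without group overlap, and from each list the 3 with the smallest p. Other members are named to account for the family, and Srsf1, Srsf2, Srsf3, Srsf9 and Hnrnpd, given with all library values, were chosen after their values were seen. Of the listed genes, Sf3b6, Qki and Adgre1 had no match by symbol. The fit was tested on simulated data. Alternatives were size factors, other filters and pseudocounts, no variance trend, a replicate block and leaving out each library.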

Additional observations from a re-analysis of the deposited data

How the results depend on the processing

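The count of 0 members past an adjusted p of 0.05 held under each alternative run. The count over all genes was 1 without the variance trend and 69 with the replicate block, and ran from 0 to 41 when each library was left out, with 41 without hindlimb ischemia replicate 1 and 1 each without hindlimb ischemia replicates 2 and 3. It was 0 with size factors, with both filters, with both pseudocounts and with the GC and length trend removed, with or without the block. Members at an unadjusted p under 0.05 numbered 5 with size factors (5.08% of all genes) and 5 with the GC and length trend removed (7.05%). They numbered 6 with the replicate block and that trend removed (10.4% of all genes), and 1, Hnrnpa1, with the replicate block alone (13.7%). Over the left-out libraries they numbered 0 to 6, with 6 without sham replicate 1 (2.90% of all genes) and 0 otherwise. The share of all genes was 19.7%, 1.72% and 2.29% without hindlimb ischemia replicates 1, 2 and 3. Without sham replicates 2 and 3 that share was 4.85% and 2.72%. The labels share replicate numbers between groups but do not say that the samples are paired. Same-numbered libraries had correlations of their deviations of 0.39, 0.18 and 0.08. Hindlimb ischemia replicates 1 and 2 correlated best with the sham library of the same number, and replicate 3 with sham replicate 2 (0.38). Whether the numbers mark a shared batch was not tested. The median log2 fold change ran from -0.04 to 0.14 for SR protein genes and from -0.05 to 0.13 for hnRNP genes over the left-out libraries.

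Of the named members, Hnrnpa2b1, Hnrnpa1, Hnrnpdl, Hnrnph2, Srsf5 and Srsf4 kept their sign under every alternative. Hnrnpf changed sign with size factors (0.030) and with the GC and length trend removed, without and with the block (0.024 in both). Srsf7 changed sign with size factors (0.083). With that trend removed, Hnrnpl had 0.026, Hnrnpul2 0.033 and Hnrnpul1 0.054, with and without the block. Over the left-out libraries, Hnrnpf ran from -0.18 to 0.043, Hnrnpk from -0.059 to 0.15, Srsf7 from -0.13 to 0.082, Hnrnpu from -0.076 to 0.17 and Hnrnpul1 from -0.33 to 0.028. The causes were not tested. TPM carries no depth, and 3 libraries a group limit the precision.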
